A study of Homo sapiens with 8 samples.

Results

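The libraries described here are the 4 H3K23su CUT&Tag libraries, of 8 libraries in the series, that set a 5-fluorouracil (5-FU) resistant line of HCT15 cells beside its parental line. HCT15 is an established human colorectal cancer cell line. The parental cells (HCT15-Pa) carried the label DMSO and the resistant cells (HCT15-FR) the label 5-FU at 20 μg/mL, with 2 libraries a line. According to the methods, HCT15-FR was kept for days in medium without 5-FU before experiments. Nothing in the labels says that the libraries of a line came from separate cultures, so the spread between them may be technical. Each line stands for 1 resistant or parental stock, so a difference between the lines and a difference between these stocks cannot be told apart. Peaks that overlapped or touched in any of the 4 lists were merged into 122500 regions. A region was FR-only where both HCT15-FR lists and neither HCT15-Pa list held a peak, Pa-only in the reverse case, and shared where all 4 lists held one. The lists hold no read counts, so the depth behind a peak is unknown, and a region without a peak was one not called at the threshold of the authors.

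H3K23su is succinylation of lysine 23 of histone H3, in which a succinyl group taken from succinyl-CoA turns the positively charged side chain into a negatively charged one. Acyl marks of the histone tails, acetylation being the best known, are found at promoters and enhancers of active genes. H3K27ac, acetylation of lysine 27, was profiled in separate libraries of the same lines and is used here for comparison. CUT&Tag directs a transposase to chromatin with an antibody, so peaks mark where the antibody bound. 5-FU is a pyrimidine analog that blocks thymidylate synthase and is built into RNA and DNA.

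The sequences below were chosen to show what the regions that differed looked like, and are 300 bp of the hg19 (GRCh37) plus strand around the midpoint of a region in an intron. The first 4 are FR-only regions in genes with many such regions, each the strongest in its gene, by score percentile in the weaker library, that had at least 300 bp, no UTR or Alu run at its centre, and there held a match to a core motif of the AP-1 or FOX families, so a match in them is a result of the choice. Capitals mark matches on either strand to short core motifs of factor families. The letters searched were TGACTCA for the AP-1 factors, which bind as dimers of FOS and JUN proteins, and TGTTTAC for forkhead (FOX) factors. For the GATA factors, which are zinc finger proteins of endoderm and blood, the letters were AGATAAG. The RUNX motif was TGTGGTTT, the motif of the TEAD partners of YAP1 was ACATTCCA, and that of the Krüppel-like factors (KLF) was GGGTGTGG. They lie at chr2:69895102-69895401 in ANXA4, which encodes a membrane-binding annexin, chr11:116881938-116882237 in SIK3, a salt-inducible kinase, chr14:89680693-89680992 in FOXN3, a forkhead repressor, and chr3:99614632-99614931 in an intron shared by CMSS1 and FILIP1L.
ANXA4: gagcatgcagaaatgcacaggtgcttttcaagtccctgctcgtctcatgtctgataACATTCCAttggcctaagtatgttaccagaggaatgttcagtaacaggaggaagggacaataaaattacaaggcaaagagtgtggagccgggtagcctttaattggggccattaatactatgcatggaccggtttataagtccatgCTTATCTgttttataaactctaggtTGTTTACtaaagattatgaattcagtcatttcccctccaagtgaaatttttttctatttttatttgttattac
SIK3: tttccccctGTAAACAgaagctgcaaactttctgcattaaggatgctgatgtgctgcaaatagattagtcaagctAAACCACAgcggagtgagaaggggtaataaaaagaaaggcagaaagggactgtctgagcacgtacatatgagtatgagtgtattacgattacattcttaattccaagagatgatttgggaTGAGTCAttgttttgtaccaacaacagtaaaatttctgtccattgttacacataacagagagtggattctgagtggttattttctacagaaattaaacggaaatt
FOXN3: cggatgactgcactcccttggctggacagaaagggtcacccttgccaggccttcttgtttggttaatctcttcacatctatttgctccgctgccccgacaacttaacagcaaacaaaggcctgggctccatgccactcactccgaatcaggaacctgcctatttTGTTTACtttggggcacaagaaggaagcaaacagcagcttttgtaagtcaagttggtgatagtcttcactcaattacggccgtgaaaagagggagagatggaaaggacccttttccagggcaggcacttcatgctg
CMSS1 and FILIP1L: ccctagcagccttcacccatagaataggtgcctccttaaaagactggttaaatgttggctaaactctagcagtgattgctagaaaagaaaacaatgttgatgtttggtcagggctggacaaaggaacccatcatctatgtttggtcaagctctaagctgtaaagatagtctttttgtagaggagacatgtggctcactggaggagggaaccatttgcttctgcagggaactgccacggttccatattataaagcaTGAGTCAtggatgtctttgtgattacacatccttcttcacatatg
In these 4 regions no HCT15-Pa library had a peak. H3K23su covered 697 and 773 bp in the HCT15-FR libraries at ANXA4, 775 and 912 bp at SIK3, 448 and 581 bp at FOXN3 and 721 and 620 bp at CMSS1. Score percentiles in HCT15-FR were 62.4 and 66.5 at ANXA4, 35.0 and 51.9 at SIK3, 69.2 and 68.4 at FOXN3 and 57.3 and 80.9 at CMSS1.

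The strongest Pa-only region of 300 bp or more in CDK8, the kinase of the Mediator complex, is shown beside them as an example. Its central 300 bp lie at chr13:26961655-26961954 in an intron and held no match to any of the 6 motifs. No match was asked for in its choice, unlike for the FR-only regions, so matches cannot be compared between them. Other Pa-only regions did hold matches, as the shares given below show.
CDK8: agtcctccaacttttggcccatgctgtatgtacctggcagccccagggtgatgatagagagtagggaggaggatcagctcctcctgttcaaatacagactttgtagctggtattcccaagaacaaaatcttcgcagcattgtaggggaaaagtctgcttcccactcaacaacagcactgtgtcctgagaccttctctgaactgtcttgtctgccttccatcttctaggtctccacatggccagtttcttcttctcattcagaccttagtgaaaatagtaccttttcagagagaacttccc
The region was covered over 416 and 351 bp in HCT15-Pa, with no peak in HCT15-FR. Its score percentiles in HCT15-Pa were only 38.0 and 45.2, and H3K27ac covered 0 bp of it in either line.

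H3K23su peaks covered more of the genome in HCT15-FR, in shared regions as well as in regions called in that line alone. The lists covered 33.5 and 33.0 Mb in HCT15-Pa and 40.0 and 39.4 Mb in HCT15-FR, so the lines did not overlap and differed by 6.44 Mb. With 2 libraries against 2, the two-sided exact permutation test gave p = 0.333, the smallest it can give. Shared regions held 22.16 and 22.04 Mb in HCT15-Pa against 26.05 and 25.78 Mb in HCT15-FR, a difference of 3.82 Mb. FR-only regions added 4.38 and 4.36 Mb to the HCT15-FR lists, and Pa-only regions 2.55 and 2.54 Mb to the HCT15-Pa lists. Regions found in 1 library alone held less in HCT15-FR, at 3.59 and 3.46 Mb, than in HCT15-Pa, at 4.22 and 3.97 Mb. The stacked bars of covered length by class show these values.

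**Figure D1:**
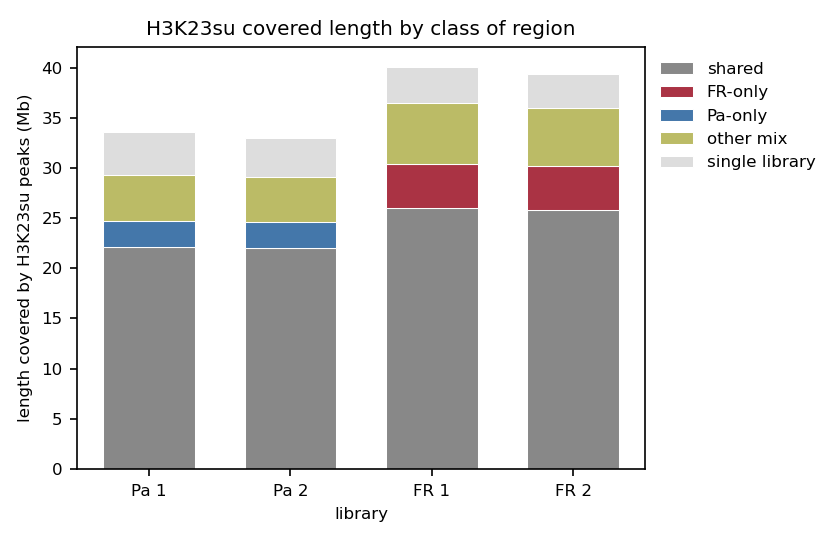
Length covered by H3K23su peaks in Mb (vertical axis) in the 2 HCT15-Pa and 2 HCT15-FR libraries (horizontal axis), stacked by class of region; "other mix" regions were present in 2 or 3 libraries in another combination. The HCT15-FR bars reach 40.0 and 39.4 Mb, above 33.5 and 33.0 Mb in HCT15-Pa, and the shared part is taller by 3.82 Mb.

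The FR-only regions numbered 9735 (7.95% of all regions) and the Pa-only regions 6143 (5.01%). Both classes lay mostly away from promoters. Gene bodies held 62.2% of FR-only and 55.3% of Pa-only regions, and windows within 2 kb of a protein-coding TSS held 6.27% and 5.89%. Of the 29230 shared regions, 30.9% lay in such windows. The central 300 bp had a median GC content of 48.0% in FR-only, 53.3% in Pa-only and 57.0% in shared regions.

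At shared regions, peaks were longer in HCT15-FR wherever they lay. The median covered length per region was 688.5 and 681 bp in HCT15-Pa and 822 and 815 bp in HCT15-FR. In promoter windows it was 958 and 959 bp against 1137 and 1127 bp, in gene bodies 578 and 574 bp against 687 and 679 bp, and outside genes 589.5 and 590 bp against 717 and 705 bp. In each place the libraries of a line lay close together and the lines did not overlap. The score of a peak is the −log10 P value of the peak caller, and it was ranked within its own list as a percentile, in which 100 is the strongest. The median percentile of the shared regions was 72.0 and 71.6 in HCT15-Pa and 74.4 and 74.0 in HCT15-FR.

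To compare single regions, log2 covered length was centred on the median of each library, which removed 0.26 on the log2 scale. The median difference over shared regions was 0.21 without centring and -0.05 with it, so centred values lean to shorter. After centring, both HCT15-FR libraries exceeded both HCT15-Pa libraries at 5725 regions (19.6%) and lay below both at 7739 (26.5%). Without centring the same counts were 11069 (37.9%) and 3178 (10.9%), so the balance of longer and shorter regions turned with the scale. By percentile, 7420 (25.4%) were higher and 5409 (18.5%) lower. The limma fit called 0 shared regions in either direction for length and for percentile after Benjamini-Hochberg adjustment. At an unadjusted p under 0.05 it gave 1796 longer and 1893 shorter regions, and 1843 higher and 1337 lower by percentile. Length and rank did not move as one. Of the longer regions 1780 were also higher in percentile and 743 lower, and of the shorter regions 1726 were higher and 1899 lower.

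The autosomal shared regions with the smallest limma p are given as a description, since none passed the adjusted threshold. The region with the smallest p among the longer ones was an intronic region of CMSS1 and FILIP1L, at chr3:99794725-99796638. It was covered over 151 and 146 bp in HCT15-Pa and 1914 and 1799 bp in HCT15-FR, while its score percentile was 64.5 and 85.5 against 46.0 and 51.6. The centred log2 difference was 3.39 ± 0.38 (SE, n = 2 libraries a line, limma adjusted p = 0.285). FILIP1L encodes a filamin A interacting protein. Regions in introns of LUZP1 (578 and 510 against 1931 and 1972 bp) and PRKAR1B, a regulatory subunit of protein kinase A (970 and 734 against 2965 and 2551 bp), and at the start of PACS1, a sorting protein (653 and 606 against 2109 and 1882 bp), were also longer in HCT15-FR. The lines did not overlap in length in any of these regions. The PRKAR1B region had lower percentiles in HCT15-FR (85.9 and 94.8 against 63.4 and 71.4).

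Of the 5 shorter regions with the smallest p, 4 lay outside protein-coding genes on chromosome 16, between 32350195 and 33805809, next to the centromere. The first was covered over 3138 and 3257 bp in HCT15-Pa and 823 and 693 bp in HCT15-FR (log2 difference -2.34 ± 0.15 SE, n = 2 a line, limma adjusted p = 0.0819). Its score percentile was 98.0 and 91.4 in HCT15-Pa and 17.5 and 22.5 in HCT15-FR. H3K27ac covered 3083 and 3279 bp of it in HCT15-Pa and 2331 and 1538 bp in HCT15-FR. Sequence near the centromere is repeated, and the part of read placement in these values was not tested.

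Among percentile changes with the smallest p, 3 of the 5 higher regions lay on chromosome 1, in introns of DFFB, PRKCZ and CAPZB. DFFB encodes the DNA fragmentation nuclease of apoptosis, PRKCZ an atypical protein kinase C and CAPZB an actin capping subunit. The CAPZB region had percentiles of 7.50 and 15.1 in HCT15-Pa and 92.0 and 95.7 in HCT15-FR, and the DFFB region 82.9 and 84.3 against 98.9 and 99.6. A region at the start of SQLE, squalene epoxidase of sterol synthesis, had percentiles of 82.0 and 79.7 against 98.9 and 98.8. An intronic region of SMAD7, an inhibitor of TGF-β signalling, had 79.6 and 81.1 against 97.4 and 98.6. The limma adjusted p of all 10 regions named by percentile was 0.439. Percentiles were lower at a region over a coding exon of SLC25A24, a mitochondrial carrier (98.7 and 99.6 against 89.2 and 89.7) and in an intron of SPOPL (97.7 and 98.7 against 80.1 and 80.5).

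The differences at shared regions varied along the genome. In the first 30 Mb of chromosome 1, 798 shared regions had a median percentile of 67.5 and 66.3 in HCT15-Pa and 82.3 and 81.9 in HCT15-FR. Their median covered length was 660 and 661 bp against 956 and 956.5 bp. The lines were far apart there beside the spread between libraries of a line, with a median difference of 11.5 percentile points, which was 1.47 points over the remaining 2180 shared regions of the chromosome. The same 30 Mb held 343 FR-only and 69 Pa-only regions, which is 11.9% and 2.40% of its 2881 regions. Among its 422 genes, 14 were FR-only and 6 Pa-only at the TSS. H3K27ac, over its own 939 shared regions, was higher by a median of 5.51 percentile points in this block and 0.0709 in the rest of the chromosome.

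On chromosome 13 the percentiles were lower. Its 779 shared regions had a median percentile of 78.0 and 78.6 in HCT15-Pa and 71.9 and 71.1 in HCT15-FR. All 13 of its bins of 5 Mb with 20 or more shared regions were lower in percentile, as were 154 of 457 such bins over the genome. Length was lower there only after centring, with a median difference of -0.22 on the log2 scale, and was 0.04 without it. In bp the median was 707 and 681 in HCT15-Pa and 692 and 707 in HCT15-FR, so the longer peaks seen over the genome were not seen on this chromosome. Uncentred, both HCT15-FR libraries were longer than both HCT15-Pa libraries at 24.9% of its regions and shorter at 22.1%, against 37.9% and 10.9% over all shared regions. FR-only regions (204) were fewer than Pa-only regions (335) there. The H3K27ac lists shifted in the same direction on this chromosome, by a median of -2.37 points over 799 shared regions. Chromosome 11 held both directions. Up to 50 Mb, 7 of its 8 bins were lower in percentile, the lowest by -13.0 points, and from 55 Mb on all 14 were higher, by 1.53 points or more. H3K27ac differed by -6.82 to -2.02 points in the first set of bins and by 1.28 to 7.71 in the second. FR-only and Pa-only regions numbered 105 and 162 in the first and 398 and 143 in the second. The strip plot of bins shows these blocks. Copy number of these chromosomes was not measured in these files, and its part in the shifts was not tested.

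**Figure D2:**
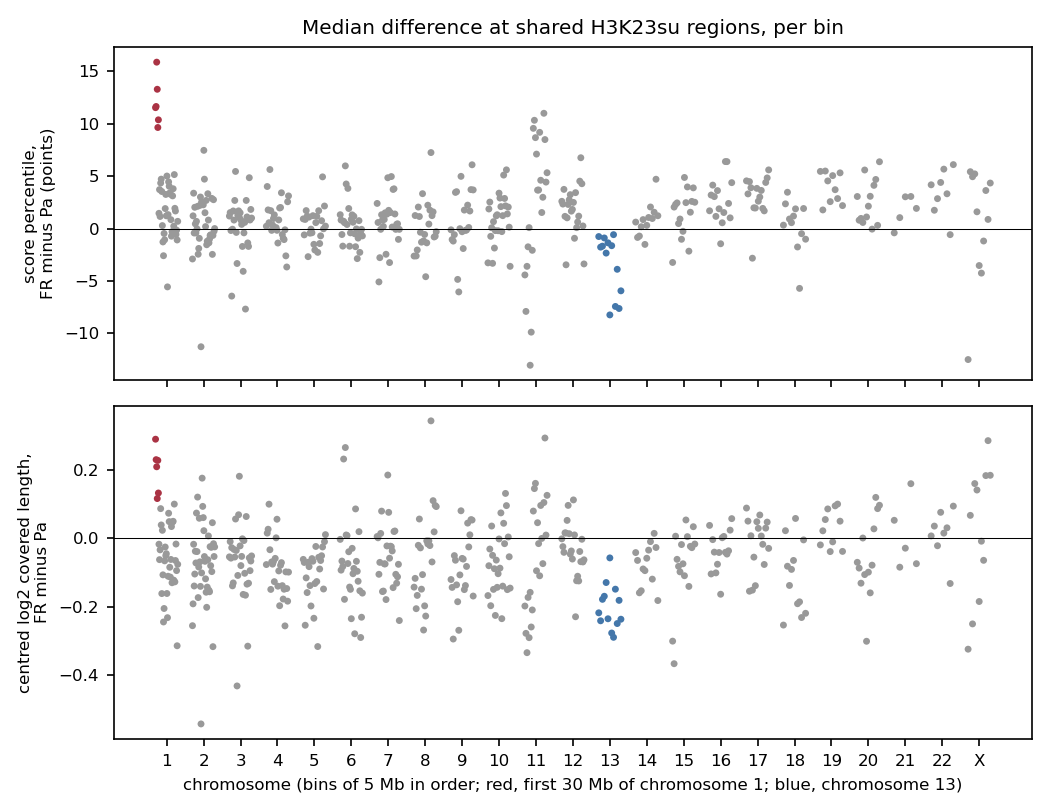
Median difference between HCT15-FR and HCT15-Pa at shared H3K23su regions in score percentile (upper panel, points) and centred log2 covered length (lower panel), 1 point per bin of 5 Mb with 20 or more shared regions, in order along each chromosome. The bins in the first 30 Mb of chromosome 1 (red) lie between 9.64 and 15.9 percentile points, and the 13 bins of chromosome 13 (blue) lie below 0 in both panels, where without centring of length 11 of the 13 lie above 0.

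Genes were then ranked by H3K23su at the TSS, within 2 kb either side. Of 20136 protein-coding genes, 10570 had a peak there in all 4 lists and 7106 in none. The start was FR-only for 382 genes (1.90%) and Pa-only for 329 (1.63%), behind which stood 460 and 386 regions. These starts were weakly marked as a rule, with a median percentile in the weaker library of 35.6 for FR-only and 41.0 for Pa-only starts, and 77.3 for starts marked in all 4 lists. As a check of the cell type, 8 of 12 colon epithelium markers, VIL1 and CDH1 among them, were marked in all 4 lists, and so were 0 of 6 fibroblast, 0 of 4 neural, 0 of 3 endothelium and 1 of 6 blood cell markers. The B cell gene CD79A was FR-only, with 0 and 0 against 146 and 304 bp.

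Zinc finger genes led the FR-only starts by covered length. ZNF718 was covered over 0 and 0 bp in HCT15-Pa and 1822 and 1919 bp in HCT15-FR. ZNF345 and ZNF790, which share a promoter on chromosome 19 and encode KRAB zinc finger proteins, had 0 and 0 against 1685 and 1818 bp, at percentiles of 91.2 and 92.6. ZNF140 followed with 0 and 0 against 1535 and 1695 bp. The other leading genes were PELI2, a Pellino ubiquitin ligase of innate immune signalling (1579 and 1767 bp in HCT15-FR), HPDL (1550 and 1594 bp), MUC5B, a gel-forming mucin (1436 and 1738 bp), TLE4, a Groucho corepressor (1420 and 1858 bp), and TNIK, a kinase of Wnt signalling (1894 and 1384 bp). All of them had no peak in either HCT15-Pa library. Percentiles in HCT15-FR were only 39.3 and 20.6 at MUC5B. The MUC5B body went the other way, with 1157 and 1474 bp in HCT15-Pa against 619 and 772 bp in HCT15-FR.

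Among the Pa-only starts with the most covered length was that of CADM1, a cell adhesion molecule, with 1755 and 1787 bp in HCT15-Pa and 0 and 0 bp in HCT15-FR. MGST1, a microsomal glutathione transferase, had 1583 and 1846 bp, and OGFRL1 1496 and 1633 bp. Transcription factors stood beside them. TGIF1, a homeodomain repressor, had 1408 and 1460 bp and GRHL2, a grainyhead factor of epithelial identity, 1397 and 1528 bp. GRIN2B, a glutamate receptor subunit, had 1475 and 1403 bp, CPEB2, an mRNA-binding protein, 2081 and 1330 bp, and PDE3B, a phosphodiesterase, 1352 and 1296 bp. The 2 libraries of HCT15-Pa differed most at CPEB2. The dot plot of start sites gives each library.

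**Figure D3:**
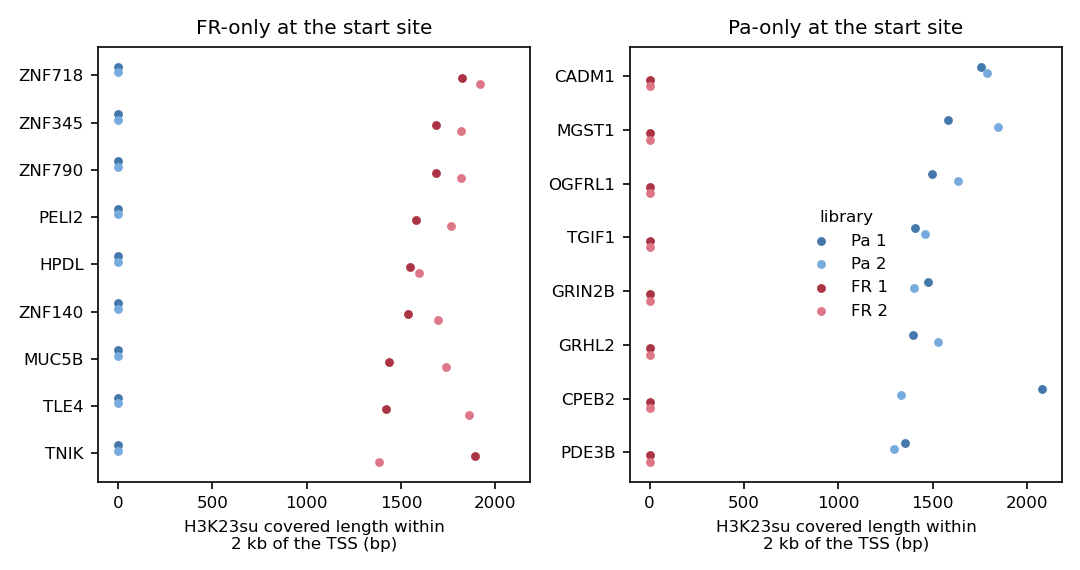
H3K23su covered length in bp within 2 kb of the TSS (horizontal axis) in each library (points) for genes among the leading FR-only (left) and Pa-only (right) starts. The FR-only genes shown lie between 1384 and 1919 bp in HCT15-FR and at 0 in HCT15-Pa. The Pa-only genes shown lie between 1296 and 2081 bp in HCT15-Pa and at 0 in HCT15-FR.

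Tested by limma on log2(covered bp + 200), 35 of 11651 TSS windows were longer in HCT15-FR (0.3%) and 57 shorter (0.489%). These calls stood at the edge of the threshold, with adjusted p = 0.0498 for ZNF718, CADM1 and MGST1 alike. With 1 library left out, an arm of 1 remained and no window was called, but the differences stayed at 3.11 to 3.18 for ZNF718 and -3.54 to -3.52 for CADM1. Without centring, 85 were longer and 59 shorter. The FR minus Pa difference was 3.14 ± 0.24 (SE, n = 2 a line, limma) for ZNF718 and -3.53 ± 0.24 for CADM1. Both differences depend on the added 200 bp because one line was at 0. The fit took genes with a mean of at least 200 covered bp, and genes at 0 in one line met this through the other alone. Their p values restate the presence and absence given above and add no separate support.

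In gene bodies, the part of a gene beyond 2 kb from its TSS, FR-only regions gathered in a set of long genes. The body held at least 3 more FR-only than Pa-only regions in 434 of 18983 genes (2.29%), and the reverse held for 94 (0.495%). The genes were long, with a median body of 207 kb for the first set and 234 kb for the second, against 28.2 kb for all. Of the 434 genes, 300 had a TSS peak in all 4 lists and 13 were FR-only there. Of the 94, 44 had one in all 4 lists, 30 in none and 13 were Pa-only.

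FOXP1, a forkhead repressor on chromosome 3, held 10 FR-only and no Pa-only regions. Its body was covered over 1484 and 1112 bp in HCT15-Pa and 13385 and 13688 bp in HCT15-FR (log2 difference 2.99 ± 0.18 SE, n = 2 a line, limma adjusted p = 0.0189). SIK3 also held 10, with 2724 and 2511 bp against 10357 and 10974 bp (1.73 ± 0.14, limma adjusted p = 0.0244). MAML2, a Mastermind coactivator of Notch, held 11 FR-only and 2 Pa-only regions, with 4448 and 5716 bp against 14267 and 12753 bp (limma adjusted p = 0.0426). DST, which encodes the cytoskeletal linker dystonin, showed both directions within 1 gene. Its body held 11 FR-only and 0 Pa-only regions, while its annotated TSS was Pa-only, with 1231 and 918 bp in HCT15-Pa and 0 and 0 bp in HCT15-FR. ANXA4 held 10 FR-only regions, and FOXN3, CMSS1 and FILIP1L 9 each. The body coverage of ANXA4, FOXN3, CMSS1, FILIP1L and DST did not pass the adjusted threshold. The genes named here were picked by counts of regions from the same peaks, so p values of their body coverage add no separate support. CMSS1 and FILIP1L overlap, so they share these regions. A readthrough gene model over FOXP1 shares its regions as well. With 1 library left out a class is easier to enter, so the difference in region counts changes with the rule as well as with the library. Without HCT15-FR replicate 1 it was 18 for FOXP1, 19 for SIK3, 19 for DST, 16 for FOXN3, 16 for CMSS1 and 14 for FILIP1L. Without HCT15-FR replicate 2 it was 19 for FOXP1, 18 for SIK3, 21 for FOXN3, and 15 for both CMSS1 and FILIP1L. Without HCT15-Pa replicate 1 it was 6 for FOXN3 and 5 for CMSS1, and without HCT15-Pa replicate 2 it was 6 for SIK3, 7 for DST, 3 for CMSS1 and 4 for FILIP1L. ANXA4 stayed at 9 to 13 and MAML2 at 8 to 13.

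Pa-only regions gathered in CDK8 (0 FR-only and 8 Pa-only), where the body was covered over 4139 and 4787 bp in HCT15-Pa and 984 and 753 bp in HCT15-FR (log2 difference -2.35 ± 0.23 SE, n = 2 a line, limma adjusted p = 0.0287). The genes of this set too were picked by counts of regions from the same peaks, so such p values add no separate support. The CDK8 region shown above, the strongest of 300 bp or more, ranked at percentiles of only 38.0 and 45.2 in HCT15-Pa. The CDK8 TSS did not change in the same way as the body, with 1266 and 1461 bp against 1425 and 1282 bp. CDK8, NBEA and UGGT2 lie on chromosome 13, as did 17 of the 94 genes of that set (18.1%), against 318 of all 18983 (1.68%). NBEA, a BEACH-domain protein of vesicle traffic, held 6 Pa-only regions and 4274 and 4376 bp in HCT15-Pa, and no covered base in HCT15-FR (limma adjusted p = 0.0244). MYT1L, a neural zinc finger factor, had 3594 and 3540 bp, likewise with 0 in HCT15-FR. TBCD, a tubulin cofactor, held 7 Pa-only regions, but its body coverage of 7281 and 7771 against 5612 and 4905 bp missed the threshold (limma adjusted p = 0.0685). Without HCT15-Pa replicate 1 or 2 a peak in 1 HCT15-Pa list was enough for the class. The Pa-only excess was then 14 and 12 regions for CDK8, 10 and 13 for NBEA and 13 in each case for RASGRF2. Without HCT15-FR replicate 1 that of TBCD was 4. RASGRF2, a Ras exchange factor, was Pa-only at the TSS and had 5 Pa-only regions in its body, with 4688 and 5343 bp against 146 and 288 bp.

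**Figure D4:**
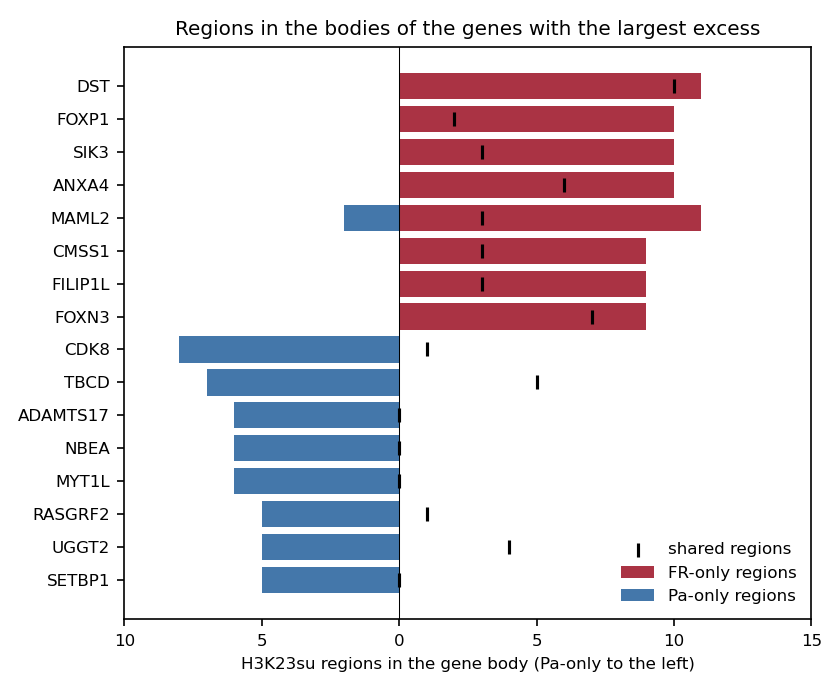
Number of FR-only regions (red, to the right), Pa-only regions (blue, to the left) and shared regions (black marks) in the bodies of genes among those with the largest differences. FOXP1 has 10 FR-only, 0 Pa-only and 2 shared regions, and CDK8 has 8 Pa-only, 0 FR-only and 1 shared region.

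By limma, 75 of 10441 gene bodies were longer in HCT15-FR (0.718%) and 63 shorter (0.603%), and without centring 184 and 53. With 1 library left out, an arm of 1 remained and none was called, but the differences stayed at 4.11 to 4.13 for TLE4 and -4.74 to -4.69 for NBEA. The largest gains were in TLE4 (0 and 0 against 3869 and 3819 bp), ANGPT1, the ligand of the TEK receptor (0 and 0 against 3428 and 4286 bp), MCTP1 (0 and 146 against 3485 and 3619 bp), SYTL2, a Rab27 effector (0 and 304 against 3825 and 4339 bp), and PLA2G4A, cytosolic phospholipase A2 (0 and 0 against 2273 and 2687 bp). Bodies that lost all covered length, beside NBEA and MYT1L, included that of HUNK, a kinase (4615 and 4447 against 0 and 0 bp). As at the TSS, bodies at 0 in one line passed the filter on mean covered length through the other line alone. Their p values add no separate support to the presence and absence of peaks.

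Gene lists were read against the share of all genes, 1.90% FR-only and 1.63% Pa-only at the TSS. In the Notch pathway, in which a cleaved receptor drives target genes with RBPJ and Mastermind proteins, 5 of 28 genes were FR-only and 0 Pa-only. The ligand DLL4 had 0 and 0 against 713 and 633 bp, and the Fringe glycosyltransferase LFNG 0 and 0 against 1254 and 951 bp. The coactivator MAML2 had 521 and 707 bp in HCT15-FR, and MAML3 80 and 103 bp. The target HEY2 had 292 and 146 bp. When any annotated transcript start could count, the Notch list held 3 FR-only and 2 Pa-only genes, and in the stronger 50% of each list 3 and 1. By limma, the bodies of 2 Notch genes were longer, MAML2 and the ligand DLL1 (0 and 0 against 1622 and 1406 bp, adjusted p = 0.0472). The DLL1 body passed the filter on covered length through HCT15-FR alone, so its p adds no separate support. The median body difference of the 16 Notch genes tested was -0.08 against 0.03 over all genes.

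Of 249 ZNF genes of chromosome 19, most of which encode KRAB zinc finger repressors, 11 were FR-only and 2 Pa-only at the TSS. ZNF470 had 0 and 0 against 1252 and 1202 bp, ZNF836 0 and 0 against 1155 and 1224 bp, and ZNF878 0 and 0 against 1105 and 1100 bp. The Pa-only pair was ZNF419 (705 and 1032 bp in HCT15-Pa) and ZNF780B (245 and 610 bp). In the other settings tried the list held 12 to 15 FR-only and 1 to 5 Pa-only genes. Their TSS windows differed by a median of 0.01 on the log2 scale, against -0.04 over all genes.

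Among FOX, GATA and RUNX factors, 2 of 22 starts were FR-only and none Pa-only. GATA6, an endoderm factor, had 0 and 0 against 932 and 911 bp, and FOXD1 0 and 0 against 276 and 443 bp. The bodies of 4 members held an excess of 3 or more FR-only regions, among them RUNX1 (9 FR-only and 4 Pa-only) and RUNX2 (5 and 1). These 2 bodies are long, at 1214867 and 334192 bp, with 0.41 and 1.20 regions in excess per 100 kb. The median body difference of the list was 0.72 over 13 tested. AP-1 factors had no FR-only or Pa-only start among 22, with 17 marked in all 4 lists. In that list BACH2, a repressor that pairs with small MAF proteins, held 8 FR-only and 0 Pa-only regions in its body (limma adjusted p = 0.0671).

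Semaphorin, plexin and VEGF genes had 3 of 38 FR-only starts and 0 Pa-only. The ligand SEMA3F had 0 and 0 against 1303 and 1483 bp, and the coreceptor NRP2 0 and 0 against 578 and 534 bp. The VEGF receptor FLT1 had 0 and 0 against 843 and 458 bp, at percentiles of 13.8 and 35.1. The bodies of SEMA5A and NRP1 were longer (limma adjusted p = 0.0426 and 0.0497). Of the Wnt ligands, receptors and regulators, 3 of 50 were FR-only. They were TLE4, described above, DKK4, a secreted antagonist (0 and 0 against 677 and 653 bp), and WIF1, another one (0 and 0 against 193 and 146 bp). WNT2B, a ligand, was Pa-only with 146 and 303 bp.

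Of 28 genes of the epithelial-mesenchymal transition, 1 was FR-only and 1 Pa-only at the TSS. VIM, the mesenchymal intermediate filament vimentin, was FR-only with 998 and 931 bp, and TGFB2, a TGF-β ligand, Pa-only with 1112 and 1144 bp. The TGFB2 body went the other way, with 1644 and 1923 against 3167 and 2977 bp (limma adjusted p = 0.224). The body of LOXL4, a lysyl oxidase, had 0 and 0 against 1473 and 1373 bp, and that of CDH2, N-cadherin, 0 and 0 against 2158 and 1283 bp. Both passed the filter on covered length through HCT15-FR alone. Their limma adjusted p = 0.0497 restates the absence of peaks in HCT15-Pa and adds no separate support. Of 25 intestinal identity factors, 2 were FR-only and 2 Pa-only, GRHL2 among the latter. The FR-only ones were CDX1, an intestinal homeodomain factor, with 574 and 456 bp, and GRHL1 with 589 and 146 bp. Of 20 Wnt targets and stem genes, 1 was FR-only and 1 Pa-only. CD44, a hyaluronan receptor, was Pa-only with 988 and 715 bp. ASCL2 was FR-only with 326 and 329 bp, at percentiles of 11.5 and 10.4. Of 18 mucin and trefoil genes, MUC5B and TFF3 (309 and 464 bp in HCT15-FR) were FR-only, and FCGBP Pa-only with 869 and 1241 bp.

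Genes of 5-FU and pyrimidine metabolism did not divide between the lines. Of 25, 20 had a TSS peak in all 4 lists and 5 in none. TYMS, which encodes the enzyme that 5-FU blocks, was covered over 1589 and 1649 bp in HCT15-Pa and 1564 and 1628 bp in HCT15-FR, a difference of -0.02 on log2(bp + 200) before centring. After centring the limma difference was -0.25 ± 0.09 (SE, n = 2 a line, adjusted p = 0.31). Folate enzymes had no FR-only or Pa-only start among 17. ABC transporters had 1 of each among 18, ABCC11 (72 and 72 bp in HCT15-FR) and ABCC2 (407 and 194 bp in HCT15-Pa). Percentiles were 94.2 and 93.8 at ABCC11 and only 0.564 and 27.7 at ABCC2. The ABCC2 body went the other way, with 292 and 195 against 1504 and 1243 bp (limma adjusted p = 0.0889). In glutathione and NRF2 genes 2 of 31 were Pa-only, MGST1 and AKR1C1, an aldo-keto reductase (608 and 265 bp). Among 28 writers and erasers of histone acyl marks, the deacetylase HDAC2 (390 and 379 bp) and the acetyltransferase KAT8 (336 and 330 bp) were FR-only. Both ranked low in HCT15-FR replicate 2, with percentiles of 69.1 and 12.4 at HDAC2 and 49.5 and 1.94 at KAT8. H3K27ac covered 1477 and 1405 bp at HDAC2 in HCT15-Pa and 1101 and 803 bp in HCT15-FR, and KAT8 held none. The body of CREBBP, another acetyltransferase, held 5 FR-only and 0 Pa-only regions. Succinyl-CoA and succinate enzymes had none in either class among 22. SUCLG2 held 3 FR-only regions in its body and SUCLA2, on chromosome 13, 4 Pa-only, which are alternative β subunits of succinyl-CoA synthetase.

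Core motifs of several factor families had a larger share among FR-only regions than among Pa-only ones, given as a description with no test. A match to the AP-1 core lay in the central 300 bp of 16.8% of FR-only, 9.08% of Pa-only and 10.9% of shared regions, and in 10.3% of all regions. For FOX these were 9.05%, 4.38%, 5.04% and 5.19%. GATA was found in 584 of 9735 FR-only, 3.61% of Pa-only and 3.97% of all regions, and RUNX in 3.37% of FR-only, 1.84% of Pa-only and 2.18% of all. TEAD (2.11%, 1.58% and 1.65%) and KLF (4.61%, 4.83% and 5.11%) differed less. Away from promoters the AP-1 values were 17.2%, 9.41% and 14.4% in FR-only, Pa-only and shared regions. The classes differed in GC content, as given above, and its part in these shares was not tested. Leaving out AP-1 matches that run on with CTGCA, as in many Alu repeats, gave 16.7% and 8.97% in FR-only and Pa-only regions.

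The same held for the whole lists. Among peaks of each HCT15-Pa library, 9.68% and 9.86% held the AP-1 core, and in HCT15-FR 12.2% and 12.3% did. FOX had 4.58% and 4.49% against 5.83% and 5.82%. The lines did not overlap for AP-1, FOX, GATA, RUNX or TEAD, each with p = 0.333 in the two-sided exact permutation test, the smallest it can give, and they overlapped for KLF. These matches are letters in a window and not binding sites. The introns shown above from ANXA4, SIK3, FOXN3 and CMSS1 are examples of such regions.

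**Figure D5:**
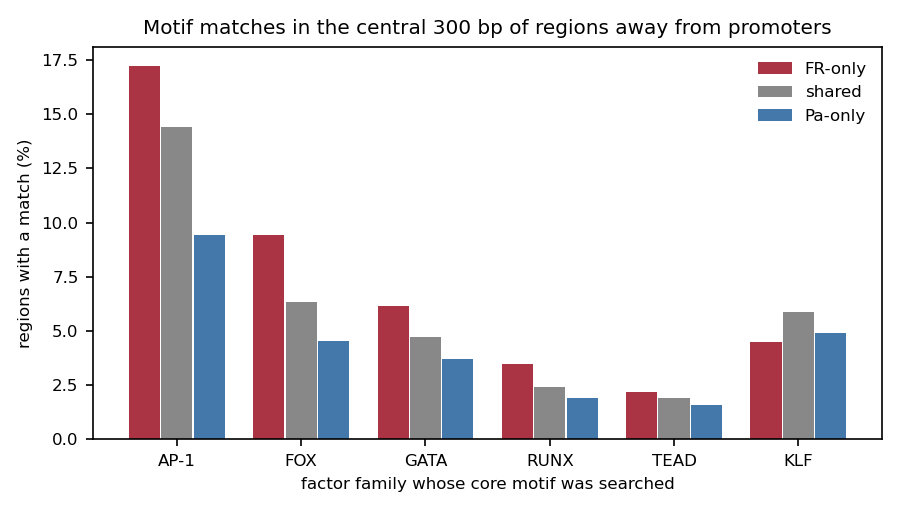
Share in % of FR-only (red), shared (grey) and Pa-only (blue) H3K23su regions away from promoters whose central 300 bp held a match to the core motif of each factor family. The AP-1 bars stand at 17.2%, 14.4% and 9.41%, and the KLF bars at 4.49%, 5.86% and 4.88%.

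Where H3K23su peaks were called in one line alone, H3K27ac was mostly higher in that line too. Inside FR-only H3K23su regions, the covered length of H3K27ac was higher in HCT15-FR at 73.8% and lower at 7.34%, with a median of 0 and 0 bp in HCT15-Pa and 287 and 287 bp in HCT15-FR. Inside Pa-only regions it was higher at 13.5% and lower at 55.2%. Inside all shared regions it was higher at 64.6% and lower at 31.7%. At the 382 FR-only starts, H3K27ac was itself FR-only at 87, Pa-only at 3 and present in all 4 of its lists at 162. At the 329 Pa-only starts it was Pa-only at 142, FR-only at 4 and in all 4 at 57. The shares of these H3K27ac classes over all genes are not given here. CADM1 had 1845 and 1534 bp of H3K27ac in HCT15-Pa and 0 and 0 bp in HCT15-FR, and ZNF790 0 and 0 against 1528 and 1699 bp. SEMA3F, in contrast, had 690 and 700 against 1228 and 677 bp, and ZNF628 1133 and 1241 against 1177 and 1278 bp, so their start sites carried H3K27ac in both lines while H3K23su peaks were called in HCT15-FR alone.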

How the data were processed

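The authors aligned CUT&Tag reads to hg19 with Bowtie2, filtered alignments with SAMtools and ran MACS2 on every library, in narrow mode for H3K23su and broad mode for H3K27ac. Deposited lists give peak positions and a score, the −log10 P value, with no read counts or depth. Chromosome positions follow hg19, and genes, exons and UTRs were taken from GENCODE release 44 mapped to GRCh37, with 1 TSS a gene. The 4 H3K23su lists were merged into regions, and scores were ranked within each list. Covered length, score percentile, TSS windows and gene bodies were tested with limma 3.58.1 in R 4.3.3 (Benjamini-Hochberg, adjusted p under 0.05) on all features with a mean of at least 200 covered bp for genes. Values per library were compared by two-sided exact permutation tests. The scripts were tested on simulated data. Python 3.11.15, pandas 2.3.3 and scipy 1.17.1 were used.

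The named autosomal regions are those with the largest differences past the threshold or, with fewer than 5 past it, the smallest p, and the named genes those with the most covered length in the weaker library at the TSS, the largest difference in region counts or limma difference in the body, and the members of gene lists that differed. Members, lists and motifs were chosen with earlier results of these data known. Some genes this rule names, those of chromosome Y among them, are not reported here. The lines share replicate numbers, which did not pair the samples. Alternatives left out each library, kept the stronger 50% of each list, and changed merging, centring, pseudocount, filter and TSS.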

Additional observations from a re-analysis of the deposited data

How the results depend on the processing

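The gain in covered length of 6.44 Mb kept its direction in every setting tried, at 6.11 to 6.77 Mb when 1 library was left out and 5.16 Mb in the stronger 50% of each list. Leaving out 1 library makes a class easier to enter, and gave 13637 to 24006 FR-only and 8391 to 22459 Pa-only regions, 567 to 650 genes FR-only and 414 to 602 Pa-only at the TSS, and 320 to 1664 and 79 to 1097 genes with 3 or more FR-only or Pa-only regions in excess. In the stronger 50% of each list there were 4638 FR-only and 2954 Pa-only regions and 140 and 26 such genes. Merging peaks within 500 bp, asking for 50% of a region to be covered, autosomes alone, the TSS window and the choice of TSS moved none of the counts of FR-only or Pa-only regions, of genes so classed at the TSS, or of genes with such an excess by more than 1.5 times.

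The number of limma calls changed with the setting. Leaving out 1 library leaves an arm of 1, assumed to vary like the other line, and so says little about stability. It gave 0 calls for shared length, TSS windows and gene bodies in both directions and for higher percentiles, and 0 to 27 for lower percentiles, the 27 without HCT15-FR replicate 1. TSS windows gave 0 longer and 0 shorter in the stronger 50%, on autosomes, without the filter on covered length and with 1 kb either side, 220 and 192 with 50 bp added, and 85 longer without centring. Gene bodies gave 0 and 0 in the stronger 50% and with 50 bp added, 12 and 13 without the filter, and 184 longer without centring. With the log2 score in place of the percentile, 67 shared regions were higher and 83 lower. The causes were not tested.

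The replicate numbers did not pair the samples, since the deviations of same-numbered libraries had correlations between -0.01 and 0.02. With the number as a replicate block, limma gave 2 shared regions shorter, 0 TSS windows in either direction, and 307 gene bodies longer and 252 shorter. Alternatives for chromosome shifts, chosen after seeing the data, left the percentile shift of chromosome 13 between -3.19 and -2.28 and that of the first 30 Mb of chromosome 1 between 10.1 and 16.3. Presence of a peak depends on the unknown depth, and the test of 2 libraries against 2 cannot pass 0.333.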

Other observations

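Ribosomal protein genes were marked by H3K23su at the TSS in all 4 lists for 52 of 60, and 2 were FR-only. RPS27 had 0 and 0 bp in HCT15-Pa and 512 and 430 bp in HCT15-FR, and RPL18 0 and 0 against 340 and 410 bp. Percentiles in HCT15-FR were 64.4 and 10.7 at RPS27 and 51.7 and 52.1 at RPL18. H3K27ac was present at both in all 4 of its lists. Of p53 targets, 21 of 23 were marked in all 4 lists. CDKN1A, the cell cycle inhibitor p21, was FR-only with 316 and 146 bp, at percentiles of 55.9 and 7.37. Summed over genes, bodies held 6595 FR-only and 3645 Pa-only regions, where a region in overlapping genes was counted for each gene. ERBB and MET receptors and ligands had no FR-only or Pa-only start among 17, and their bodies held 8 FR-only and 0 Pa-only regions. Tight junction and keratin genes had none among 26, with 10 FR-only and 0 Pa-only regions in their bodies.

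Beside chromosome 11, the bins with the lowest percentile differences lay on chromosome X, at -12.5 points, and chromosome 2, at -11.3.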
